A study of Mus musculus with 6 samples.

Results

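Integrins, syndecans, tetraspanins and a few other receptors of the cell surface were examined in primary mouse Sertoli cells infected with an adenovirus for Cre or for eGFP. The members were chosen by symbol: integrin subunits, syndecans and tetraspanins that carry these names followed by a number, together with Itgav, Itgal, Itgam, Itgax, Cd44, Cd9, Cd81, Cd82, Cd151, Cd63, Icam1 and Vcam1. On the array, 85 of 45281 probes bore such a symbol, and they stood for 42 of 31490 symbols. A further 6 probes of 4 integrin-binding proteins were left out, and no probe bore the symbol of Cd82 itself.

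Integrins are pairs of an alpha and a beta subunit that bind proteins of the extracellular matrix, or receptors of the immunoglobulin family on other cells, and link them to the actin cytoskeleton. Syndecans carry heparan sulfate chains and bind matrix and growth factors beside integrins, and Cd44 is the main receptor for hyaluronan. Tetraspanins gather integrins and other partners in the membrane, and in the seminiferous tubule Sertoli cells use such receptors to hold the basement membrane and the germ cells.

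Both groups were Sertoli cells from pooled seminiferous tubules of 3 week-old C57BL/6J mice of the genotype Ctnnb1(tm1Mmt/tm1Mmt), released with collagenase, hyaluronidase and trypsin, and infected in medium without serum for 24 h at a multiplicity of about 50. Cre removes a floxed stretch of Ctnnb1, which leaves a beta-catenin that resists degradation, so the comparison asks how cells with the recombined allele differ from cells that received Ad-eGFP. Each treatment had 3 RNA samples on 3 Illumina BeadChip arrays, and the labels do not say whether these came from separate cultures, so the p-values measure only the spread between these samples. Cells with unfloxed Ctnnb1 that received Ad-Cre were not analysed here, so an effect of Cre or of the virus and an effect of the recombined allele cannot be told apart. Values are log2 intensities after background correction and quantile normalization, the fold change is Ad-Cre minus Ad-eGFP on that scale, and the adjusted p comes from a limma fit across the 20855 probes that 3 or more of the 6 arrays detected with a p-value under 0.05. The number of arrays limits the precision. A gene is given by its brightest tested probe, for members among the probes that bear the member's symbol. With 3 arrays against 3, an exact two-sided permutation test cannot go below p = 0.1, and every gene below whose treatments did not overlap had that value.

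The labels were checked first. The eGFP probe read 13.18, 13.14 and 12.72 on Ad-Cre arrays 1 to 3 and 14.99, 15.01 and 14.79 on Ad-eGFP arrays 1 to 3. It was thus higher on every Ad-eGFP array, with a log2 fold change of -1.91 ± 0.14 (SE, adjusted p = 0.000368), although all 3 Ad-Cre arrays also detected it. The probes of Ctnnb1 moved in opposite directions, with log2 fold changes of 0.22 (adjusted p = 0.211), 0.30 (adjusted p = 0.0254) and -0.39 (adjusted p = 0.0187). Their positions relative to the floxed stretch are not given in the sources used here, so they check nothing about recombination. All 17 markers of Sertoli cells that were looked up were tested, from Sox9, Wt1 and Gata4 to Clu and Cldn11. Of these markers, 9 were lower with Ad-Cre and 1 was higher (median log2 fold change -0.38), and Amh was detected on 1 of 3 Ad-Cre arrays against 3 of 3 Ad-eGFP arrays. Amh, counted among the lower markers, was thus tested through its detection with Ad-eGFP and had to differ. The study also picked 4 of these markers, Sox9, Wt1, Rhox8 and Aard, on these arrays, so their direction here is not independent evidence. The paper reports that real-time RT-PCR on cultured cells bore out its array results. In Sertoli cells from mutant testes it found markers of male sex differentiation unchanged.

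Of the 42 member genes, 31 were tested and 11 were not. Among the tested genes, 12 were higher and 3 lower with Ad-Cre at an adjusted p under 0.05, which is 38.7% and 9.68% of them, where 10.4% and 12.8% of all 15133 genes tested were higher and lower. Without Ad-eGFP 3, 7 members were higher and 1 lower, and the lower members also numbered 1 without Ad-Cre 1, Ad-Cre 2 or Ad-eGFP 2. The number of all probes that passed also fell, from 4774 with all arrays to 2483 without Ad-eGFP 3. It was 3557, 3019 and 2820 without Ad-Cre 1, Ad-Cre 2 and Ad-eGFP 2. At least a 1.5-fold change was shown by 6 higher genes and 1 lower gene, against 3.72% and 4.17% of all genes tested. The higher genes were Itga7, Itga5, Cd44, Sdc1, Icam1 and Vcam1, and the lower gene was Tspan17. For 19 of the 31 genes (61.3%) the arrays of the treatments did not overlap, beside 42.9% of all genes tested. The median log2 fold change of the tested members was 0.18, and it was -0.01 over all genes tested, and neither changed with undetected genes set at their bounds. Itgb8 and Itgb3 were tested only because the arrays of a single treatment detected them, so these had to differ.

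**Figure D1:**
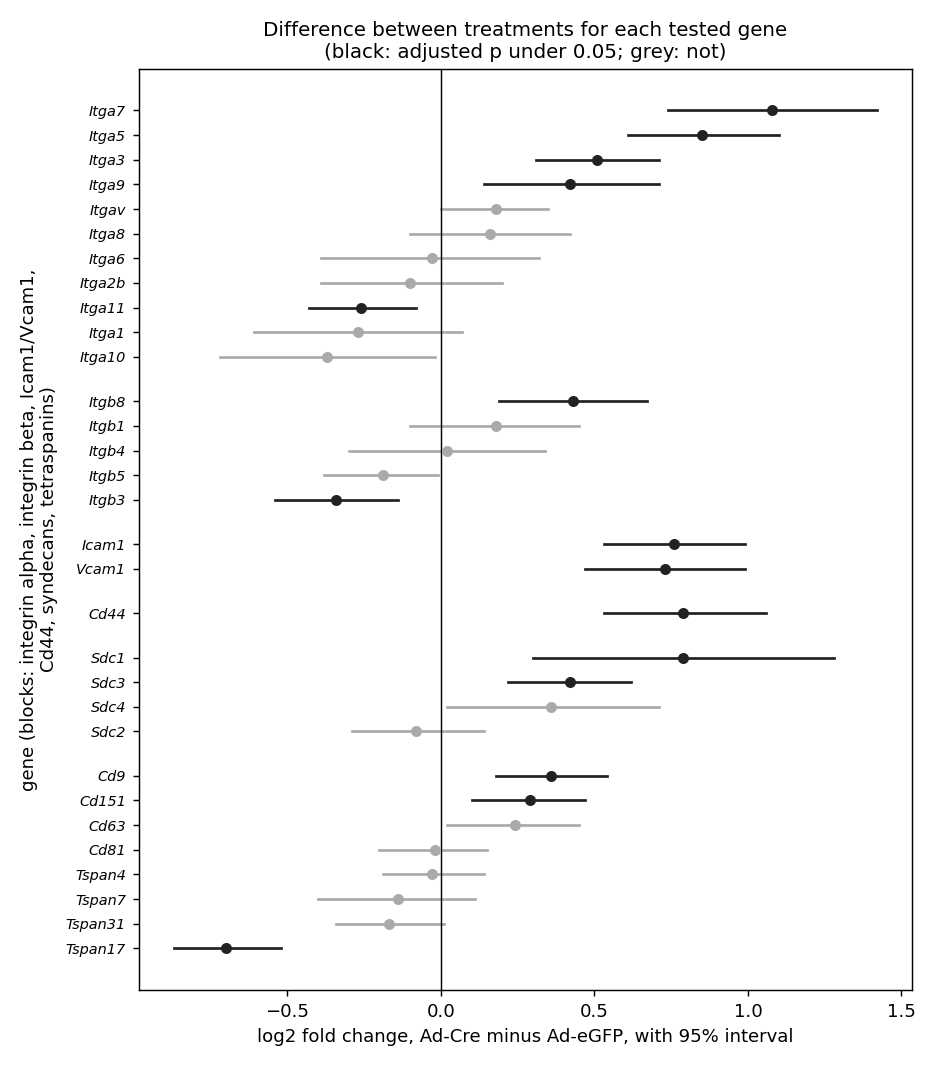
Each point is the log2 fold change (Ad-Cre minus Ad-eGFP, 3 arrays each) of a tested member at the brightest probe with its symbol. Each line is its 95% interval from limma. Black points passed an adjusted p under 0.05, and they run from Itga7 at 1.08 to Tspan17 at -0.70.

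Of the 16 integrin alpha subunits on the array, 11 were tested, and 4 were higher and 1 lower with Ad-Cre (median log2 fold change 0.16), beside the 10.4% and 12.8% of all genes tested. Itga7, an alpha subunit of a laminin receptor best known from muscle, had the largest change of the tested members in these values, a rank it did not keep with the background treated otherwise. Its log2 intensity was 7.35, 7.56 and 7.28 on Ad-Cre arrays 1 to 3 and 6.61, 6.08 and 6.25 on Ad-eGFP arrays 1 to 3. All Ad-Cre arrays were above all Ad-eGFP arrays, and the closest pair was Ad-Cre 3 and Ad-eGFP 1. The means were 7.40 ± 0.14 with Ad-Cre and 6.32 ± 0.27 with Ad-eGFP (SD, n = 3 each), a log2 fold change of 1.08 ± 0.15 (SE, limma adjusted p = 0.00316), or 2.12-fold. For this dim probe the size of the change depended on the treatment of the background, with 0.58 without background correction and 0.35 with a larger offset, both past the threshold. Itga5, Cd44, Icam1 and Tspan17 changed by more in both settings, and Itga3 (0.44) and Vcam1 (0.36) did so with the larger offset.

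Itga5 pairs with Itgb1 to form the classical fibronectin receptor. It read 9.72, 9.87 and 9.52 on Ad-Cre arrays 1 to 3 and 8.80, 8.93 and 8.81 on Ad-eGFP arrays 1 to 3. The Ad-eGFP arrays lay close together, and the lowest Ad-Cre array, replicate 3, was still well above them. Itga5 rose from 8.85 ± 0.07 with Ad-eGFP to 9.70 ± 0.18 with Ad-Cre (SD, n = 3 each), a log2 change of 0.85 ± 0.10 (SE, limma adjusted p = 0.00208), or 1.81-fold. Its other probe rose by 0.71 (adjusted p = 0.00357).

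Itga3, an alpha subunit of a laminin receptor that tetraspanins bind directly, rose from 10.36 ± 0.07 with Ad-eGFP to 10.86 ± 0.11 with Ad-Cre (SD, n = 3 each), a log2 change of 0.51 ± 0.09 (SE, limma adjusted p = 0.00726). Itga9, whose integrin binds tenascin C and Vcam1, had means of 6.05 with Ad-Cre and 5.63 with Ad-eGFP and a log2 fold change of 0.42 ± 0.12 (SE, adjusted p = 0.0449). That probe was dim. A brighter probe of Itga9, listed under an older symbol, had means of 8.93 and 8.68 and a smaller log2 fold change of 0.25 (adjusted p = 0.0493). Itga11, a collagen receptor subunit, fell by 0.26 ± 0.07 (SE, adjusted p = 0.0458), from 9.37 to 9.11, and its dimmer probe had a log2 fold change of -0.21 (adjusted p = 0.155). Calls of both Itga9 and Itga11 lay near the threshold. With any array other than Ad-eGFP 2 left out, the adjusted p of Itga9 at its dimmer probe was between 0.0537 and 0.132. Over all alternatives it spanned 0.025 to 0.169. With any of the 6 arrays left out, the adjusted p of Itga11 was between 0.058 and 0.154 (0.0125 to 0.154 over all alternatives).

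The other alpha subunits tested did not pass. Itga6, a laminin receptor subunit used to sort spermatogonial stem cells, had means of 6.12 and 6.15 with Ad-Cre and Ad-eGFP, and its 95% interval ran from -0.39 to 0.32. Itgav, which pairs with several beta subunits to bind vitronectin, had means of 8.97 with Ad-Cre and 8.79 with Ad-eGFP (log2 fold change 0.18, adjusted p = 0.138). Its Ad-Cre arrays lay above its Ad-eGFP arrays without overlap. Itga1, Itga2b, Itga8 and Itga10 had log2 fold changes from -0.37 to 0.16, with overlapping arrays. Itga2, Itga4, Itgal, Itgam and Itgax were not detected on enough arrays. The latter 3 are alpha subunits of leukocyte integrins.

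Of the 9 integrin beta subunits, 5 were tested, with a median log2 fold change of 0.02. The calls among them were 1 higher and 1 lower, 20% each, beside 10.4% and 12.8% of all genes tested. They were Itgb8 and Itgb3, which had to differ, since the arrays of a single treatment detected them. Itgb1, the partner of most alpha subunits and of Itga7, Itga5, Itga3 and Itga9, read 7.86, 7.98 and 8.13 on Ad-Cre arrays 1 to 3 and 7.63, 7.81 and 7.99 on Ad-eGFP arrays 1 to 3. These ranges overlapped, since Ad-Cre 1 and Ad-Cre 2 lay below Ad-eGFP 3. The log2 fold change was 0.18 (95% interval -0.10 to 0.45, adjusted p = 0.318), and 0.17 at its other probe. At this precision no change of the partner that the 4 raised alpha subunits share was measured.

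The tested probe of Itgb8, a partner of Itgav that binds latent TGF-beta, was detected on all 3 Ad-Cre arrays and on no Ad-eGFP array. Its means were 5.74 with Ad-Cre and 5.31 with Ad-eGFP, and it was at least 1.24-fold higher with Ad-Cre (adjusted p = 0.0235), where the Ad-eGFP arrays were set at the higher of their lowest detected signal and the probe's own. Itgb3, the beta subunit of the platelet integrin and another partner of Itgav, showed the reverse, with detection on all 3 Ad-eGFP arrays and no Ad-Cre array. It had means of 5.35 with Ad-Cre and 5.69 with Ad-eGFP and was at least 1.21-fold lower with Ad-Cre (adjusted p = 0.0275). A second probe of Itgb8, detected on 1 Ad-eGFP array only and not tested, read lower on all Ad-Cre arrays, at 4.95, 5.00 and 5.13 against 5.22, 5.25 and 5.57, and these values lay mostly below the detection limit. Both genes lay close to the limit of detection. The adjusted p of Itgb8 was 0.0784 without Ad-Cre 2 and 0.0726 without Ad-eGFP 3 (0.0204 to 0.209 over all alternatives), and that of Itgb3 was 0.0702, 0.0831, 0.0923 and 0.103 without Ad-Cre 1, Ad-Cre 2, Ad-eGFP 2 and Ad-eGFP 3 (0.0229 to 0.309 over all alternatives). Itgb4, the hemidesmosome subunit, had a log2 fold change of 0.02 (adjusted p = 0.929), and that of Itgb5 was -0.19 (adjusted p = 0.122). The Ad-Cre arrays of Itgb5 all lay below its Ad-eGFP arrays, and it passed as lower with a larger offset (-0.16, adjusted p = 0.0365, with 0.0365 to 0.337 over all alternatives). Itgb2, Itgb2l, Itgb6 and Itgb7 were not tested, and Itgb2 is the common beta subunit of the leukocyte integrins.

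Icam1 and Vcam1 are receptors of the immunoglobulin family that integrins of other cells bind. Icam1 read 9.09, 8.89 and 8.91 on Ad-Cre arrays 1 to 3 and 8.19, 8.33 and 8.07 on Ad-eGFP arrays 1 to 3. For Vcam1 the values were 8.25, 8.15 and 8.39 with Ad-Cre and 7.65, 7.60 and 7.34 with Ad-eGFP, in the same order of replicates. Both genes were higher on every Ad-Cre array, by more than the range within either treatment. Icam1 rose from 8.2 ± 0.13 with Ad-eGFP to 8.96 ± 0.11 with Ad-Cre (SD, n = 3 each), a log2 change of 0.76 ± 0.10 (SE, limma adjusted p = 0.00254), or 1.70-fold. Vcam1 rose from 7.53 ± 0.16 with Ad-eGFP to 8.26 ± 0.12 with Ad-Cre (SD, n = 3 each), a log2 change of 0.73 ± 0.11 (SE, limma adjusted p = 0.00451), or 1.66-fold. With a larger offset these changes were 0.47 and 0.36. Icam1 had 1 probe, and the 3 further probes of Vcam1 were not tested.

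Cd44 read 10.03, 10.17 and 10.40 on Ad-Cre arrays 1 to 3 and 9.31, 9.51 and 9.40 on Ad-eGFP arrays 1 to 3. All Ad-Cre arrays lay above all Ad-eGFP arrays, and Ad-Cre 3 was the highest. The means were 10.20 ± 0.19 with Ad-Cre and 9.41 ± 0.10 with Ad-eGFP (SD, n = 3 each), a log2 fold change of 0.79 ± 0.11 (SE, limma adjusted p = 0.00367), or 1.73-fold. A dimmer probe rose by 0.72 (adjusted p = 0.0299), and the other 7 of its 9 probes were not tested.

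All 4 syndecans were tested, and 2 of them rose (median log2 fold change 0.39), where 10.4% of all genes tested were higher. Sdc1, the syndecan typical of epithelia, read 6.81, 6.55 and 5.94 on Ad-Cre arrays 1 to 3 and 5.52, 5.77 and 5.65 on Ad-eGFP arrays 1 to 3. The treatments did not overlap, but Ad-Cre 3 lay much nearer to the Ad-eGFP arrays than the other Ad-Cre arrays did. Sdc1 rose from 5.65 ± 0.13 with Ad-eGFP to 6.44 ± 0.45 with Ad-Cre (SD, n = 3 each), a log2 change of 0.79 ± 0.21 (SE, limma adjusted p = 0.0351), or 1.73-fold. A second probe, detected on no Ad-eGFP array, was at least 1.72-fold higher with Ad-Cre (means 6.22 with Ad-Cre and 5.14 with Ad-eGFP, adjusted p = 0.0102), but it was tested only because the Ad-Cre arrays detected it, so it had to differ. At the brightest probe the log2 fold change was 1.04 without Ad-Cre 3 (adjusted p = 0.00401). The adjusted p was 0.0773 and 0.103 without Ad-Cre 1 and Ad-Cre 2 and 0.1, 0.0681 and 0.0955 without Ad-eGFP 1, 2 and 3, and all alternatives together spanned 0.00401 to 0.136. The change shrank to 0.33 without background correction and to 0.18 with a larger offset.

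Sdc3 rose from 9.69 ± 0.04 with Ad-eGFP to 10.11 ± 0.12 with Ad-Cre (SD, n = 3 each), a log2 change of 0.42 ± 0.08 (SE, limma adjusted p = 0.0130), with an adjusted p of 0.054 without Ad-eGFP 2 (0.00175 to 0.054 over all alternatives). Sdc4, which sits in focal adhesions beside integrins, did not pass (log2 fold change 0.36, adjusted p = 0.123). It read 12.56, 12.57 and 12.03 on Ad-Cre arrays 1 to 3 and 12.00, 12.01 and 12.05 on Ad-eGFP arrays 1 to 3. Replicate 3 of Ad-Cre thus lay among the Ad-eGFP arrays, as it lay nearest to them for Sdc1, while replicates 1 and 2 were well above. Without Ad-Cre 3 the log2 fold change of Sdc4 was 0.54 (adjusted p = 0.00402, with 0.00402 to 0.298 over all alternatives), and with all arrays it passed without background correction (adjusted p = 0.0418). Sdc2 had a log2 fold change of -0.08 (95% interval -0.29 to 0.14, adjusted p = 0.593).

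**Figure D2:**
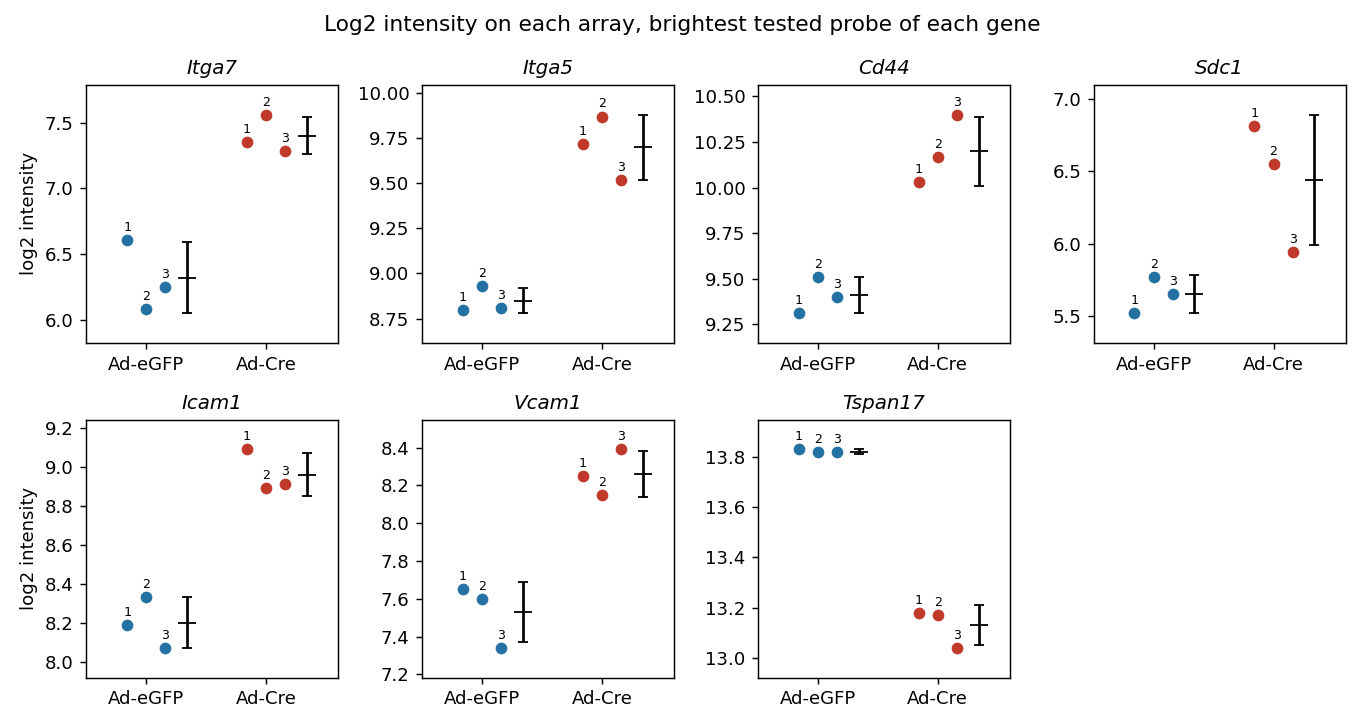
Log2 intensity (vertical axis, a separate scale in each panel) on every array for the 7 genes with an adjusted p under 0.05 and at least a 1.5-fold change, with the replicate number above each point and the mean and SD (n = 3) as a black bar. Only Sdc1 has an Ad-Cre array, replicate 3 at 5.94, that lies near the highest Ad-eGFP array, at 5.77.

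Of the 10 tetraspanins selected, 8 were tested, with 2 higher and 1 lower (median log2 fold change -0.02), which is 25% and 12.5% of them, beside 10.4% and 12.8% of all genes tested. The lower share was thus close to that of all genes. Tspan17, of the subgroup that carries the protease Adam10 through the cell, is also in the study's own list of changed genes, which was drawn up on these arrays, so its direction is not independent evidence. It read 13.18, 13.17 and 13.04 on Ad-Cre arrays 1 to 3 and 13.83, 13.82 and 13.82 on Ad-eGFP arrays 1 to 3. The Ad-eGFP arrays were nearly equal, and all Ad-Cre arrays lay clearly below them. Tspan17 fell by 0.70 ± 0.07 on the log2 scale (SE, limma adjusted p = 0.00124), with means of 13.13 ± 0.08 and 13.82 ± 0.01 for Ad-Cre and Ad-eGFP (SD, n = 3 each), or 1.62-fold. Its second probe fell by 0.75 (adjusted p = 0.00339), and its dimmest probe had a log2 fold change of -0.45 with overlapping arrays (adjusted p = 0.126).

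Cd9, which binds integrins and is known for its role in the fusion of sperm and egg, rose from 11.88 ± 0.05 with Ad-eGFP to 12.24 ± 0.08 with Ad-Cre (SD, n = 3 each), a log2 change of 0.36 ± 0.08 (SE, limma adjusted p = 0.0155). Its adjusted p was 0.0627 without Ad-eGFP 2 and 0.0655 without Ad-eGFP 3 (0.00118 to 0.0655 over all alternatives). Cd151, the closest tetraspanin partner of the laminin-binding integrins, had means of 13.47 with Ad-Cre and 13.18 with Ad-eGFP at its brightest probe (log2 fold change 0.29, SE 0.08, adjusted p = 0.0386). The other probes of Cd151 did not pass, with 0.12 (adjusted p = 0.282) and 0.00 (adjusted p = 1), and the mean over its probes was 0.13 (adjusted p = 0.187). With any array other than Ad-Cre 3 left out, the adjusted p of the brightest probe was between 0.081 and 0.125 (0.00478 to 0.187 over all alternatives).

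Cd81, a close relative of Cd9, had means of 14.35 and 14.37 with Ad-Cre and Ad-eGFP and a 95% interval from -0.20 to 0.15. Cd63, the tetraspanin of late endosomes and exosomes, was higher on every Ad-Cre array at all 3 of its probes, but none passed (log2 fold change 0.24 at the brightest, adjusted p = 0.112, and 0.34 and 0.13 at the others). Its brightest probe passed without Ad-Cre 3 (0.33, adjusted p = 0.0178) and, with all arrays, without background correction (adjusted p = 0.0416) and with a larger offset (adjusted p = 0.0357, with 0.0178 to 0.271 over all alternatives). Tspan4, Tspan7 and Tspan31 had log2 fold changes of -0.03, -0.14 and -0.17 and did not pass. Tspan11 and Tspan32 were not tested.

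The array also lists genes of these families under older symbols, which the choice by symbol did not reach, and these were looked up after the data had been seen. Through synonyms in RefSeq, 20 further symbols matched 18 genes of the same families, of which 15 were not yet members. Of the 18 genes, 12 were tested. An adjusted p under 0.05 was reached by 3 of the 12, each higher with Ad-Cre, where 10.4% of all genes tested were higher and 12.8% lower. These 3 include Itga9, which was already counted among the higher members. The median log2 fold change of the 12 was 0.08. Tspan18 read 8.85, 8.88 and 8.41 on Ad-Cre arrays 1 to 3 and 7.61, 7.50 and 7.22 on Ad-eGFP arrays 1 to 3. No array of either treatment came near the other treatment. It rose from 7.44 ± 0.20 with Ad-eGFP to 8.71 ± 0.26 with Ad-Cre (SD, n = 3 each), a log2 change of 1.27 ± 0.15 (SE, limma adjusted p = 0.0021), or 2.41-fold, and a further probe rose by 0.75 (adjusted p = 0.0146). The remaining tested probe was detected on the Ad-Cre arrays alone, which is why it was tested, so it had to differ.

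Tspan12, a partner of the receptor for Norrin, which signals to beta-catenin, had values of 6.53, 6.66 and 6.68 with Ad-Cre and 5.73, 6.14 and 5.96 with Ad-eGFP. The treatments were again apart, and the log2 fold change came to 0.68 ± 0.12 (SE, adjusted p = 0.00735). The probe of Itga9 under its older symbol, which is the brighter of that gene, rose by 0.25 (adjusted p = 0.0493). Cd82, listed as Kai1, had means of 10.44 with Ad-Cre and 10.22 with Ad-eGFP and a log2 fold change of 0.22 (adjusted p = 0.0782). Of the other Adam10-carrying tetraspanins, Tspan14, Tspan15 and Tspan33 had log2 fold changes of -0.13, 0.10 and 0.03 and did not pass, and Tspan5 and Tspan10 were not tested. Tspan3 had a log2 fold change of -0.09 at its brighter probe (adjusted p = 0.632) and fell by 0.32 at its dimmer probe (adjusted p = 0.0278).

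Of 27 tested genes of the adhesion machinery that links integrins to actin, 3 were higher, 1 was lower and 23 did not pass, with a median log2 fold change of 0.02. For these genes and those of the lists that follow, the shares over all genes tested were 10.4% higher and 12.8% lower, and the higher share in the adhesion machinery was close to that. Without Ad-eGFP 3, 2 of its genes passed. Zyx, the focal adhesion protein zyxin, fell by 0.42 ± 0.07 (SE, adjusted p = 0.00565), and Actn1, an alpha-actinin, rose by 0.35 ± 0.07 (SE, adjusted p = 0.0121).

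Among 28 tested matrix ligands of integrins, 5 were higher and 2 lower (median log2 fold change 0.13). The number that passed was 4 without Ad-Cre 1 or Ad-eGFP 2 and 3 without Ad-eGFP 3. Tnc, the tenascin that Itga9 integrins bind, read 10.44, 10.57 and 10.53 with Ad-Cre and 9.43, 9.82 and 9.68 with Ad-eGFP, and its log2 change was 0.87 ± 0.11 (SE, adjusted p = 0.00241). Spp1, or osteopontin, which binds Cd44 and Itgav integrins, rose by 0.77 ± 0.10 (SE, adjusted p = 0.00275), and is likewise in the study's list from these arrays. Lama3, a laminin alpha chain bound by Itga3 and Itga6 integrins, fell by 0.87 ± 0.08 (SE, adjusted p = 0.000852). The ligands of the members that rose thus moved in both directions. Fn1, the ligand of Itga5, had means of 10.20 with Ad-Cre and 10.04 with Ad-eGFP that did not differ beyond the spread (adjusted p = 0.619), and was named after its values were seen.

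Of 10 tested partner proteins of tetraspanins and syndecans, 2 passed, and both were higher (median log2 fold change 0.08). Without Ad-Cre 3, 4 passed, and with any other single array left out, 1 passed. The number was 5 without background correction, with a larger offset and with stricter detection (5 of 9 tested). It was 1 with the replicate number as a block and without the detection filter. The 2 in the main setting were Sdcbp2 and Ezr. Sdcbp2, a scaffold of the syntenin family, rose by 0.96 ± 0.11 (SE, adjusted p = 0.00154). Ezr, the actin linker ezrin, rose by 0.29 ± 0.08 (SE, adjusted p = 0.0403). Of 25 tested genes for heparan sulfate and hyaluronan, 6 were higher and 4 lower (median log2 fold change -0.02). The number that passed was 5 without Ad-Cre 2 or Ad-eGFP 2, 6 without Ad-eGFP 1 and 4 without Ad-eGFP 3. Has2, the synthase that makes the hyaluronan bound by Cd44, read 7.33, 7.17 and 7.34 with Ad-Cre and 5.24, 5.82 and 5.06 with Ad-eGFP. Every Ad-Cre array and only 1 Ad-eGFP array detected it, so it was tested through its detection with Ad-Cre and had to differ, and no size is given for the change. Hs3st1, which adds sulfate to heparan sulfate, rose by 0.77 ± 0.07 (SE, adjusted p = 0.000866), and Hyal2, a hyaluronidase, fell by 0.45 ± 0.08 (SE, adjusted p = 0.00745).

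Other cell types of the testis carry the same receptors, so their markers were examined. In these bulk samples, fewer cells of a type and less RNA per cell cannot be told apart. Of 13 tested leukocyte markers, 1 was higher and 3 lower (median log2 fold change -0.05), where 2 passed without Ad-Cre 2, Ad-eGFP 1 or Ad-eGFP 2 and 1 without Ad-eGFP 3, and their summed linear intensity was 4203, 3944 and 4006 on Ad-Cre arrays 1 to 3 and 4818, 4643 and 5037 on Ad-eGFP arrays 1 to 3. The most abundant was Lyz2, which fell by 0.35 (adjusted p = 0.0276), Fcer1g fell by 0.38 (adjusted p = 0.0124), and Csf1r, detected on no Ad-eGFP array, was at least 1.54-fold higher (adjusted p = 0.00204), although it had to differ, since it was tested only through its detection with Ad-Cre. Ptprc, the pan-leukocyte marker, and the leukocyte integrin subunits Itgal, Itgam, Itgax and Itgb2 were not detected on enough arrays to be tested. Of 4 tested endothelial markers (median log2 fold change 0.03), 1 was higher, which was Esam with 0.68 (adjusted p = 0.0247). Esam did not pass without Ad-Cre 2, Ad-Cre 3, Ad-eGFP 2 or Ad-eGFP 3, or with the replicate number as a block. With stricter detection 2 endothelial markers were tested, and 0 passed. Kdr, Tek, Tie1, Cldn5, Emcn and Vwf were not tested. The summed intensity of the tested markers, led by Egfl7, was 538.1, 511.8 and 538.3 with Ad-Cre and 519.9, 472.1 and 499.8 with Ad-eGFP.

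None of the 7 tested peritubular myoid markers passed by limma, while 3 were higher at an unadjusted p under 0.05 by limma and 3 by the methods' t-test with equal variances (median log2 fold change 0.12). Tagln, Tpm2 and Des were higher on every Ad-Cre array, with log2 fold changes of 0.50 (adjusted p = 0.0523), 0.28 (adjusted p = 0.0504) and 0.32 (adjusted p = 0.0725). Mylk was lower on every Ad-Cre array, with -0.18 (adjusted p = 0.153), and Acta2, Actg2 and Myh11 had log2 fold changes from -0.03 to 0.12. The number that passed was 3 without Ad-Cre 3, without background correction and with stricter detection, and 4 with a larger offset. The summed intensity was mostly that of Acta2 and overlapped between treatments, at 82430, 80740 and 78460 against 80820, 78170 and 79660. Of 7 tested germ cell markers, Sycp1 was higher by 0.45 (adjusted p = 0.0168) and Tex14 fell by 0.44 (adjusted p = 0.00754, median log2 fold change of the list 0.02), where 1 marker passed without Ad-eGFP 2 or Ad-eGFP 3, with Dazl the most abundant and sums of 4339, 4199 and 4833 against 4665, 4702 and 4569. Neither of the 2 tested Leydig cell markers passed by limma, while 1 was lower at an unadjusted p under 0.05 and 0 passed by the methods' t-test at that threshold (median log2 fold change -0.19), 1 marker passed without Ad-Cre 1, and their sums, led by Cyp11a1, were 473.6, 407.4 and 420.6 against 508.6, 492.4 and 508.8. The summed intensity of the 17 Sertoli cell markers, led by Cldn11, was 170200, 163300 and 153700 on Ad-Cre arrays 1 to 3 and 207400, 204500 and 209800 on Ad-eGFP arrays 1 to 3. The largest changes among the Sertoli cell markers were those of Rhox8 and Fshr, with log2 fold changes of -1.80 and -1.46 (adjusted p = 0.000186 and 0.000327). The part of these shifts in the changes of the receptors was not tested.

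Promoters of the genes with at least a 1.5-fold change are shown because these genes moved together, apart from Tspan17, which moved the other way. RefSeq promoters of GRCm38.p6, from 250 bases before to 50 bases after the start, were at hand for 5 of the 7 genes, and the other genes are Itga7 and Vcam1. Motifs, chosen after the data had been seen, were searched on both strands: TCF/LEF as CTTTGAT, AP-1 as TGANTCA, Sp1 as GGGCGG, and the NF-kB consensus. They were found in 3.73%, 7.81%, 35.7% and 8.46% of all 32841 promoters. Of the 25 tested members with a promoter, 0 held TCF/LEF, 1 AP-1, 16 Sp1 and 4 NF-kB. A match is a description of the letters and says nothing of binding. Capitals mark Sp1 matches, except the first capitals of Sdc1, which mark NF-kB, and no match overlapped another. The sequences run 5′ to 3′ along the strand of the gene.
Itga5, chr15:103366742-103367041, minus strand: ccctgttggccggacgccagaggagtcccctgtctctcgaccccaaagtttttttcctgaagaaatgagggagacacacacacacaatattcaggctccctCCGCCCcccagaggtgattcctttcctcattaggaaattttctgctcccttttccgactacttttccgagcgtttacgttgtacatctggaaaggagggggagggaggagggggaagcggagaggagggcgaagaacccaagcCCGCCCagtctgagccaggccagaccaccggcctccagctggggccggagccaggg
Cd44, chr2:102901616-102901915, minus strand: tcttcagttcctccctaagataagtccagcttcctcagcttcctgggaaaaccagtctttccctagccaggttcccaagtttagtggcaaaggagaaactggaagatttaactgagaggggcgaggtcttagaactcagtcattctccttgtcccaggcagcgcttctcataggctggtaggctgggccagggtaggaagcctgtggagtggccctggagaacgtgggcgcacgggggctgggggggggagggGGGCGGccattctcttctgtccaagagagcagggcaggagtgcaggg
Icam1, chr9:21015690-21015989, plus strand: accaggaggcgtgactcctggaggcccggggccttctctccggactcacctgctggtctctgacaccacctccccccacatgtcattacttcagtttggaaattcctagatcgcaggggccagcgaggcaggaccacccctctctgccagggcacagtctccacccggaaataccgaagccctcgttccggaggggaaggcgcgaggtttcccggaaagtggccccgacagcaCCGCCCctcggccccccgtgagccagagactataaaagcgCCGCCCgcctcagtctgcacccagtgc
Sdc1, chr12:8771146-8771445, plus strand: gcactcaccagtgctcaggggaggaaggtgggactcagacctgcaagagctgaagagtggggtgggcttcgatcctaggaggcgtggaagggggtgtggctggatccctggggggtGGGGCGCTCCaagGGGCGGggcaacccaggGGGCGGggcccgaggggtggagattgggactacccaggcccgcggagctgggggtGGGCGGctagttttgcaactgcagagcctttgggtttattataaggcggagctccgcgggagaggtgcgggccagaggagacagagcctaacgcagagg
Tspan17, chr13:54789155-54789454, plus strand: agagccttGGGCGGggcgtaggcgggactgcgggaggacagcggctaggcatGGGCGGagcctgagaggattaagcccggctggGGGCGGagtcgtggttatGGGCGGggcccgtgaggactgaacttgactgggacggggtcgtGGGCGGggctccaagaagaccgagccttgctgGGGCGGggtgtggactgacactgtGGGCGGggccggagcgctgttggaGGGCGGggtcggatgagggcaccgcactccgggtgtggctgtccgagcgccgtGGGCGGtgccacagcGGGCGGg

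Tspan17 held 10 Sp1 matches in this window, Sdc1 3, Itga5 and Icam1 2 each, and Cd44 1, and none of these windows held the TCF/LEF or AP-1 letters. The Sp1 letters were thus in the windows of the gene that fell and of the 4 genes searched that rose.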

How the data were processed

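The authors deposited raw probe intensities of every array, with no normalization or background subtraction. Each deposited intensity comes with a p-value for its detection above negative-control beads. The authors' own comparison of the treatments (means, fold changes, scores and p-values) was not used here, nor were 12 per-sample columns of bead statistics.

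Intensities were background-corrected with limma 3.58.1 under R 4.3.3 (neqc, offset 16, quantile normalization, log2). Probes that 3 or more of 6 arrays detected at a p-value under 0.05 were compared by lmFit and eBayes without covariates, two-sided, with Benjamini-Hochberg adjustment over 20855 probes. The procedure was also run on simulated data, but the outcome is not given here and no result rests on it. Symbols were matched to RefSeq (GRCm38.p6), 21545 of 31490. Members and lists were chosen with earlier results of these data known. Full values were given for members past an adjusted p of 0.05 with at least a 1.5-fold change, and means for others that passed. Itga6, Itgb1, Cd9, Cd81, Itgav and Tspan17 were given in any case, with up to 3 genes of each other list. Beyond that limit, Fn1 was added to the matrix ligands, and all tested myoid markers were given. Alternatives concerned background, offset, scaling, filter, test, block, probe choice and leaving out each array.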

Additional observations from a re-analysis of the deposited data

How the results depend on the processing

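Of the 15 member genes past an adjusted p under 0.05, 6 passed under every alternative that tested them (Cd44, Icam1, Vcam1, Itga5, Itga7 and Tspan17), and no member that passed in any setting changed direction. Over 459 fold changes of member genes under the alternatives, 395 kept their side of the threshold, 58 lost and 6 gained it. A t-test with equal variances was also used, at the paper's thresholds of an unadjusted p under 0.05 and at least a 1.5-fold change. It gave 6 higher and 1 lower member genes and 1622 probes in all. The test, the adjustment and the fold threshold differ together there. The paper also names an EB algorithm for its arrays, which is not part of a plain t-test. With each array left out in turn, the higher members numbered from 7 to 13, the lower members from 1 to 2 and all probes from 2483 to 5669. With detection p-values under 0.01 on all 6 arrays, 9 of 25 members were higher and 2 lower, beside 4883 of 16558 probes past the threshold. Adding the 12 tested genes under older symbols to the 31 tested members, with Itga9 counted once, gave 14 higher and 3 lower. That alternative was chosen after seeing the data. Of all genes tested, 10.4% were higher and 12.8% lower.

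With the replicate number as a block, 11 members were higher and 2 lower, and 4162 probes passed in all. Deviations of arrays with the same number correlated by 0.16, 0.06 and 0.04, which do not pair the samples, although every array correlated best with its own number. Of 120 counts for the other lists, 38 moved by more than 1.5 times, as for tetraspanin partners (1 to 5, against 2) and myoid markers (0 to 4, against 0). The mean over probes gives no count of probes. Median scaling moved the median of all genes from -0.01 to 0.02. Signals near background limit Itgb3, Itgb8, Sdc1 and the dimmer probe of Itga9, whose log2 fold changes shrink with a larger offset.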
